A study of Mus musculus with 8 samples.

Results

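Transcripts of 36 cell cycle genes were followed in the sciatic nerve of SOD1G93A and wild-type mice. They were taken by gene name from a list of genes of mitosis and DNA replication. This choice by name uses no measured value, but the list was drawn up with earlier results of these data known. Where a gene had several probes, the one brightest in nerve over all 8 arrays stands for it. Of the 36, 22 are mitotic genes, 10 are replication genes, 2 are cyclins of the first gap phase (G1) and 2 regulate the licensing of replication origins. The array design holds 34821 gene names outside its controls, and 15344 of them, including 24 of the 36, were bright enough in nerve to be tested. The study hybridised 8 Agilent 2-colour arrays, 4 from male wild-type mice, described as non-transgenic controls, and 4 from male SOD1G93A transgenic mice, all 60 days of age, an age that the series title calls presymptomatic. SOD1G93A mice carry a mutant human SOD1 gene and are a model of amyotrophic lateral sclerosis. Nerve RNA carried the dye Cy3 on every array, and Cy5 was carried by a common reference, a pool of heart, liver and kidney RNA from neonatal wild-type and SOD1G93A mice. The labels call the 4 arrays of a group biological replicates without saying whether each is 1 animal, so the p-values measure the spread between these arrays.

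Dividing cells express the replication genes as they enter S phase and the mitotic genes later, in G2 and M phase. The timing is set largely by transcription. E2F factors act at promoters of replication genes, and the MuvB complex with B-MYB and FOXM1 acts at promoters of mitotic genes, through an element called the CHR and in concert with the CCAAT-binding factor NF-Y. In the healthy adult sciatic nerve few cells divide, whereas after nerve injury Schwann cells and macrophages re-enter the cycle.

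The RefSeq promoter table for assembly GRCm38.p6, which gives 250 bases before and 50 bases after each gene's start, held entries for 29 of the 36 genes, 31 entries in all. Ccna2, Mcm4, Gmnn, Foxm1, Ccnd1, Aurkb and Tpx2 were not matched. Exact matches were searched on both strands for the NF-Y box (CCAAT), for the CHR (TTTGAA) and for 3 forms of the E2F site (TTTCCCGC, TTTGGCGC and TTTCGCGC). The mitotic and replication genes shared the NF-Y box. It was present in 17 of 19 mitotic entries and 9 of 10 replication entries, against 37.4% of all 32851 promoters in the table. The CHR was present in 15 of 19 mitotic entries and in 1 of 10 replication entries, that of Mcm2, against 17.9% of all promoters. The E2F forms were present in 1 of 19 mitotic entries, that of Cdk1, and in 4 of 10 replication entries, those of Mcm3, Mcm5, Mcm6 and 1 of the 2 entries of Mcm7, against 1.84% of all promoters. The licensing gene Cdc6 also held an E2F form. These are matches of letters and not mapped binding sites, and genes that share a window or a bidirectional start were not removed from the share of all promoters.

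The 250 bases before the start of 5 genes are shown with these matches in capitals. Mki67 and Rrm2 are the mitotic and the replication gene with the smallest p between genotypes, and Mcm3 is the tested replication gene with the largest difference in the opposite direction. Cdc20 and Mcm6 were chosen for where their matches lie. Mki67 lies at chr7:135716380-135716629, Cdc20 at chr4:118437344-118437593, Mcm3 at chr1:20820313-20820562 and Mcm6 at chr1:128359706-128359955, all on the minus strand, and Rrm2 at chr12:24708004-24708253 on the plus strand, on GRCm38.p6.
Mki67: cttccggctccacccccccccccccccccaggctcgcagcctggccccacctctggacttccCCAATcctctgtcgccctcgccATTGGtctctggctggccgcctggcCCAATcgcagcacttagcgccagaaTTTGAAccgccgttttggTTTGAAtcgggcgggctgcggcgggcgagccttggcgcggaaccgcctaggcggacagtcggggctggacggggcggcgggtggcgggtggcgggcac
Cdc20: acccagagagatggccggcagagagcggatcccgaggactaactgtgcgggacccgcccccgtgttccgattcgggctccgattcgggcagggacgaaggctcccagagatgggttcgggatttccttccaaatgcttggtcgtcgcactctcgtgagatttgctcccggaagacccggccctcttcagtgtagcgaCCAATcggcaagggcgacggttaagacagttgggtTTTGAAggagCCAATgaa
Rrm2: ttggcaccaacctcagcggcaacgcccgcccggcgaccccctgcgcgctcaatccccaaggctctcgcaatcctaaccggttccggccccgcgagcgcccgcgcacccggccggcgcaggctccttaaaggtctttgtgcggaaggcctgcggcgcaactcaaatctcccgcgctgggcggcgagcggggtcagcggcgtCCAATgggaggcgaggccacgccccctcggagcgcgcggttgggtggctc
Mcm3: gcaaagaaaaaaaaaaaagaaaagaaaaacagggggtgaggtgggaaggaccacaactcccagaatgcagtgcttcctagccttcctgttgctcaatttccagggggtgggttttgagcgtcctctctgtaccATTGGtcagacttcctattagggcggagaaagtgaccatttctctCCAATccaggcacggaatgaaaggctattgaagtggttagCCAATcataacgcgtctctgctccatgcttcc
Mcm6: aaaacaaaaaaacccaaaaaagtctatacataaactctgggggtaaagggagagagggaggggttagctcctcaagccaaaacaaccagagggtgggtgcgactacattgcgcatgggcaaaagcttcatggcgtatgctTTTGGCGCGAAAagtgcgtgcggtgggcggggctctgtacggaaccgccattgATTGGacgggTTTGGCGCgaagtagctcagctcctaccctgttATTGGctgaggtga
Each line runs 5′ to 3′ and ends 1 base before the start. Mki67 held 3 NF-Y boxes that began 188, 166 and 141 bases before the start, followed by 2 CHR matches at 116 and 98 bases. Cdc20 held an NF-Y box at 53 bases and a CHR match at 18 bases with a further NF-Y box at 8 bases. Rrm2 held 1 NF-Y box, at 50 bases, and none of the other letters searched. Mcm3 held 3 NF-Y boxes, at 117, 72 and 32 bases, and its 2 E2F forms lay after the start, outside the printed bases. In Mcm6 an E2F form at 110 bases overlapped a reverse-strand form at 106 bases, another lay at 47 bases, and NF-Y boxes lay at 57 and 14 bases.

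The 8 arrays shared 1 slide and were scanned on 1 date, and the first of the 2 numbers that give an array's place was shared within a genotype and differed between genotypes, so genotype and place on the slide cannot be told apart. Each array had 59305 spots outside the controls, and 35.5% to 41.7% of them stood well above background in Cy3, against 48.7% to 51.1% in Cy5. All 12 marker genes of myelinating Schwann cells were tested, with a median log2 ratio of nerve to reference of 4.59, and of 12 markers of heart, liver or kidney 5 were tested, with a median of -3.74. Wild-type replicate 1 and SOD1G93A replicate 1 stood apart from the other arrays, with relative weights of 0.53 and 0.17 from limma's array weights, which fall as an array departs from its group, against 1.07 to 2.17 for the other arrays. Levels below are log2 ratios of nerve (Cy3) to reference (Cy5) after loess, and a difference is the mean SOD1G93A level minus the mean wild-type level on that scale. A negative level means more signal from the reference than from nerve.

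No cell cycle gene of the 24 tested passed the threshold between genotypes (limma, Benjamini-Hochberg adjusted p under 0.05 over all 15344 genes), where 25 genes, 0.163%, passed. The 13 tested mitotic genes all had higher means in SOD1G93A nerve, by 0.17 (Foxm1) to 0.83 (Mki67), with a median of 0.33, against a median of -0.02 over all tested genes, of which 45.3% had a positive difference. Of the 13, 10 had an unadjusted p under 0.05, against 4.84% of all tested genes in this direction and 6.57% in the other, and in 7 of 13 every SOD1G93A array lay above every wild-type array, as in 3.67% of all tested genes, while 4.33% lay wholly below. The 9 tested replication genes did not share this. Their median was -0.07, Rrm2 and Rrm1 had positive differences and the other 7 negative ones, and 1 of 9, Rrm2, had an unadjusted p under 0.05 and groups that did not overlap. Genes of 1 process are not independent of each other, so these counts describe these arrays. In whole nerve, more cells in division and more transcript per cell cannot be told apart.

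**Figure D1:**
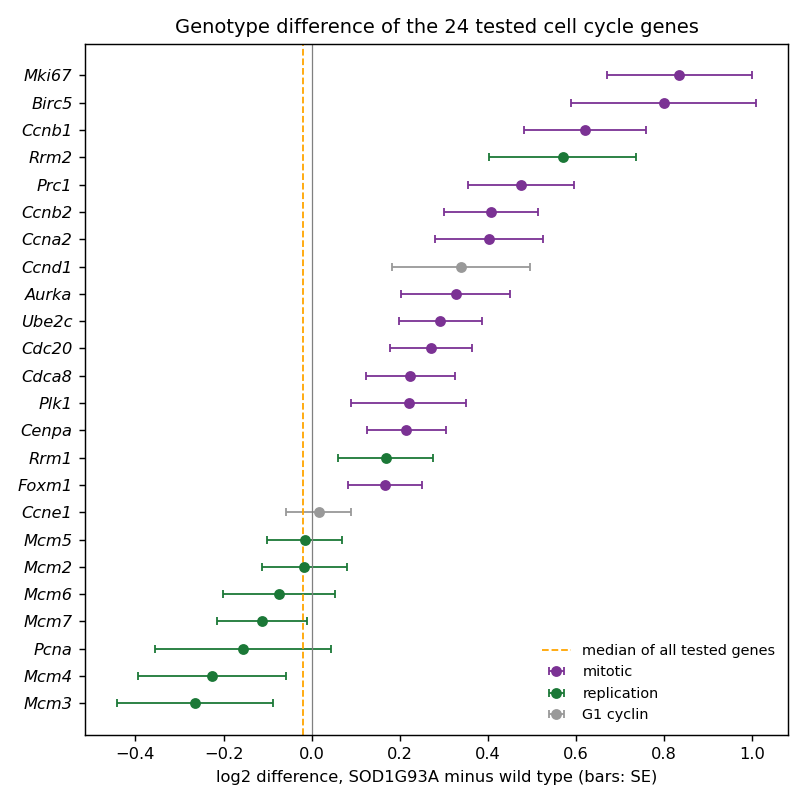
Difference between genotypes (mean SOD1G93A minus mean wild type, log2, horizontal axis) for each of the 24 tested cell cycle genes, coloured by group, as points with standard errors from limma, with a dashed line at the median of all tested genes, -0.02. All 13 mitotic genes lie to the right of 0, while the 6 Mcm genes and Pcna lie to the left of it.

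Mki67, which encodes the nuclear protein Ki-67 found in cycling cells and absent from resting ones, had the smallest p of the 24. Its levels were -2.68, -2.87, -3.19 and -3.29 on the wild-type arrays 1 to 4 and -2.06, -1.96, -2.54 and -2.13 on the SOD1G93A arrays 1 to 4. All SOD1G93A arrays lay above all wild-type arrays, and replicate 3 was the lowest SOD1G93A array. The means were -3.01 ± 0.28 and -2.17 ± 0.25 (SD, n = 4 per group), a difference of 0.83 ± 0.16 (SE), or 1.78-fold, with an adjusted p of 0.106 (limma) at rank 88 of all tested genes. The processed Cy3 intensity alone was 540.9, 310.0, 258.7 and 223.2 in wild type and 766.9, 988.2, 477.6 and 663.2 in SOD1G93A nerve, so that on this unratioed scale wild-type replicate 1 lay above SOD1G93A replicate 3. The gene's other probe gave 0.72 ± 0.18 (SE), also with separate groups. The probe used lies at chr7:142881591-142881650 on the minus strand of mm9, the build of the files.

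The mitotic cyclins activate CDK1 for entry into mitosis. Ccnb1 encodes cyclin B1, and its levels were -2.48, -2.61, -2.34 and -2.68 in wild type and -1.79, -1.60, -2.07 and -2.17 in SOD1G93A nerve. The groups did not overlap, and the difference was 0.62 ± 0.14 (SE, limma adjusted p = 0.132). Ccnb1 stood well above background on 4 of 4 SOD1G93A arrays but on 2 of 4 wild-type arrays. Its wild-type level is therefore near the limit of measurement. Other Ccnb1 probes were not well above background in nerve on any array. Their means were -0.63 and -0.75 in wild type and -0.59 and -0.49 in SOD1G93A nerve. Ccnb2, cyclin B2, was well above background on all 8 arrays, with levels of -2.38, -2.66, -2.60 and -2.49 in wild type and -2.17, -1.91, -2.32 and -2.11 in SOD1G93A nerve. Its groups were separate too, with a difference of 0.41 ± 0.11 (SE, limma adjusted p = 0.194). Ccna2, cyclin A2, which acts in S phase and G2, gave 0.40 ± 0.12 (SE, limma adjusted p = 0.270) and exceeded background clearly on 2 of 4 wild-type arrays. Its groups overlapped, as SOD1G93A replicate 3 at -2.66 lay just below wild-type replicate 1 at -2.63.

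Birc5 and Prc1 act on the dividing spindle and chromosomes. Birc5 encodes survivin, a subunit of the chromosomal passenger complex, and its levels were -2.64, -3.04, -3.43 and -3.11 in wild type and -2.46, -1.78, -2.63 and -2.16 in SOD1G93A nerve. The groups were separate by a narrow margin, between wild-type replicate 1 and SOD1G93A replicate 3, and the difference was 0.80 ± 0.21 (SE, limma adjusted p = 0.198), or 1.74-fold. Prc1 encodes a protein that bundles the microtubules of the central spindle, and its levels were -1.46, -1.52, -1.53 and -1.64 in wild type and -1.18, -0.71, -1.24 and -1.12 in SOD1G93A nerve. The wild-type arrays lay close together, SOD1G93A replicate 2 was far the highest, and the difference was 0.47 ± 0.12 (SE, limma adjusted p = 0.186). Cdca8, which encodes borealin of the same passenger complex as survivin, gave 0.22 ± 0.10 (SE) with groups that overlapped. The other Cdca8 probe was not well above background in nerve on any array, with means of -0.58 in wild type and -0.57 in SOD1G93A nerve. Cenpa, the histone variant that marks the centromere, gave 0.21 ± 0.09 (SE), and its groups overlapped as well.

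Ube2c and Cdc20 belong to the machinery that ends mitosis, Ube2c as a ubiquitin-conjugating enzyme and Cdc20 as an activator of the anaphase-promoting complex. Ube2c levels were -2.59, -2.45, -2.33 and -2.36 in wild type and -2.15, -1.96, -2.25 and -2.20 in SOD1G93A nerve. Cdc20 levels were -1.69, -1.71, -1.76 and -1.80 in wild type and -1.58, -1.24, -1.58 and -1.48 in SOD1G93A nerve. In both genes the groups were separate, with differences of 0.29 ± 0.10 and 0.27 ± 0.09 (SE, limma adjusted p = 0.295 and 0.320). The other kept probe of Ube2c gave 0.39 ± 0.14 (SE) with groups that overlapped, as SOD1G93A replicate 3 at -2.83 lay below wild-type replicates 1 and 4.

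The mitotic kinases Aurka, which acts at the spindle poles, and Plk1, which acts from mitotic entry to cytokinesis, gave 0.33 ± 0.12 and 0.22 ± 0.13 (SE, limma adjusted p = 0.363 and 0.553). In both genes 1 or more SOD1G93A arrays lay inside the wild-type range. Foxm1, the transcription factor of mitotic genes named above, gave 0.17 ± 0.08 (SE, limma adjusted p = 0.496), the smallest difference of the 13, and stood well above background on 3 of 4 SOD1G93A and 2 of 4 wild-type arrays. The other Foxm1 probe was not well above background in either dye on any array, with means of 0.03 in wild type and -0.05 in SOD1G93A nerve.

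Ccnb1, Ccna2 and Foxm1 had entered the test although they were not well above background on some wild-type arrays. On the 10 mitotic genes that were well above background on all 8 arrays, 10 of 10 differences were positive with a median of 0.31, 8 had an unadjusted p under 0.05 and 6 had separate groups. These counts come from the fit of all 15344 tested genes. In a fit of only genes well above background on all 8 arrays, 9 mitotic genes had an unadjusted p under 0.05 (limma). The share over all genes of that fit was 11.4%, in either direction. Shares of positive differences and of separate groups were not taken under that filter. When arrays were centred on their median in place of loess, 3 mitotic genes in place of 10 had an unadjusted p under 0.05, where the share of all tested genes in either direction was 3.49% in place of 11.4%. Without SOD1G93A replicate 2 the mitotic median was 0.24, and it lay between that value and 0.40 with any 1 array left out, with 13 of 13 positive each time. With Agilent's processed signals it was 0.51, and Ccnb1 gave 1.42 and Ccna2 0.77.

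**Figure D2:**
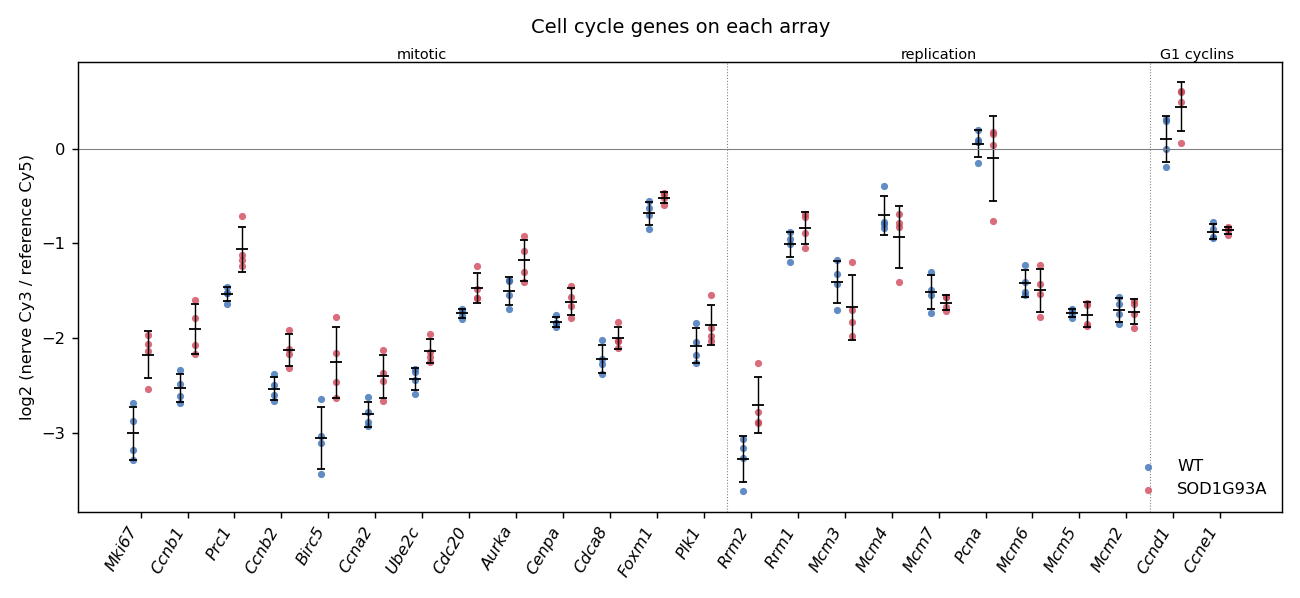
Level of the 24 tested cell cycle genes on each array (log2 ratio of nerve to reference, vertical axis), with each array as a point and the mean ± SD of the 4 arrays of a genotype as black bars. Mki67, Birc5 and Ccnb1 have the largest differences between genotype means among the mitotic genes, whereas the points of the Mcm genes are mixed.

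The mitotic genes ranked the arrays of a genotype alike. SOD1G93A replicate 2 was the highest SOD1G93A array for 12 of the 13 genes, and replicate 3 the lowest for 10 of 13. The gap between these 2 arrays ran from 0.12 to 0.86 over the genes. In wild type, replicate 1 was the highest for 9 of 13 genes and replicate 4 the lowest for 7 of 13. Averaged over the 13 genes as deviations from each gene's mean over the 8 arrays, the level was -0.09, -0.20, -0.25 and -0.28 on wild-type arrays 1 to 4 and 0.18, 0.44, 0.02 and 0.17 on SOD1G93A arrays 1 to 4. The SOD1G93A arrays thus ranged from 0.02 to 0.44 around a group mean of 0.20, against a wild-type mean of -0.20, and the groups did not overlap.

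The replication genes form the machinery that unwinds and copies DNA and supplies its building blocks. Rrm2 encodes the regulated small subunit of ribonucleotide reductase, which makes deoxyribonucleotides, and its levels were -3.07, -3.16, -3.62 and -3.26 in wild type and -2.89, -2.27, -2.78 and -2.89 in SOD1G93A nerve. The groups were separate, with replicate 2 again the highest, and the difference was 0.57 ± 0.17 (SE, limma adjusted p = 0.248), or 1.48-fold. Rrm1, the large subunit, gave 0.17 ± 0.11 (SE, limma adjusted p = 0.580) with overlapping groups.

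Mcm2 to Mcm7 encode the 6 subunits of the MCM helicase, which opens the DNA at the replication fork. All 6 differences were negative, from -0.26 to -0.02, none had an unadjusted p under 0.05, and the groups overlapped in each. Mcm3, with the largest, had levels of -1.32, -1.18, -1.43 and -1.71 in wild type and -1.83, -1.19, -1.98 and -1.70 in SOD1G93A nerve, a difference of -0.26 ± 0.18 (SE, limma adjusted p = 0.596). SOD1G93A replicate 2 lay level with the highest wild-type array. Mcm4 gave -0.23 ± 0.17 (SE) and Mcm7 -0.11 ± 0.10, and Mcm6, Mcm2 and Mcm5 lay at -0.07, -0.02 and -0.02, each within 1 SE of 0.

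Pcna encodes the sliding clamp of the DNA polymerases. Its levels were 0.20, -0.15, 0.09 and 0.07 in wild type and -0.77, 0.17, 0.04 and 0.16 in SOD1G93A nerve. SOD1G93A replicate 1 alone lay far below the rest, and the difference of -0.16 ± 0.20 (SE, limma adjusted p = 0.793) became 0.07 without that array. Without the same array 5 of the 9 replication genes were positive in place of 2, as Mcm5 turned to 0.026 and Mcm6 to 0.021. Mcm2, Mcm3, Mcm4 and Mcm7 stayed negative without it. On the 6 arrays numbered 2 to 4 the count of positive genes was 6 and the median 0.04. Scaling the arrays to equal spread turned Mcm2 and Mcm5 to values just above 0. The negative sign of the Mcm genes and Pcna is therefore not settled. Mcm7 stayed negative under every alternative run, as did Mcm3 on its brighter probe and on the mean of its probes, at -0.08, but not on its other probe.

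**Figure D3:**
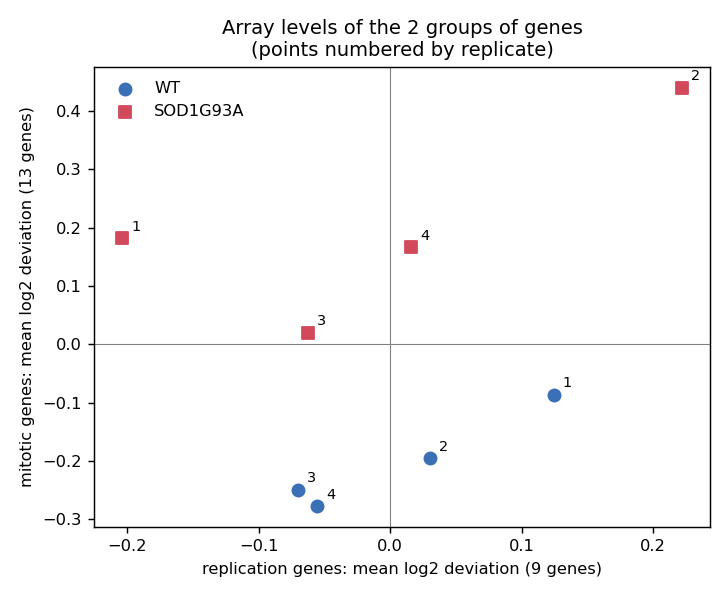
Mean deviation of the 13 mitotic genes (vertical axis) against that of the 9 replication genes (horizontal axis), both in log2, with each array as a point numbered by replicate. The mitotic level lies above 0 on all 4 SOD1G93A arrays and below 0 on all 4 wild-type arrays, whereas the replication levels of the genotypes overlap, from -0.07 to 0.12 in wild type and from -0.20 to 0.22 in SOD1G93A nerve.

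The replication level on the same scale was 0.12, 0.03, -0.07 and -0.06 on the wild-type arrays and -0.20, 0.22, -0.06 and 0.02 on the SOD1G93A arrays. SOD1G93A replicate 2 was the highest of its group for 6 of 9 replication genes, as for the mitotic genes. Replicate 1 was the lowest for 4 of 9. On that array the mitotic level, 0.18, was the second highest of the 8.

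Of the G1 cyclins, Ccnd1 encodes cyclin D1, which responds to growth signals and drives exit from rest. Its levels were -0.19, 0.31, 0.00 and 0.29 in wild type and 0.61, 0.60, 0.06 and 0.50 in SOD1G93A nerve. SOD1G93A replicate 3 lay inside the wild-type range and the other 3 above it, and the difference was 0.34 ± 0.16 (SE, limma adjusted p = 0.453). Ccne1, cyclin E1, which acts at entry into S phase, gave 0.02 ± 0.07 (SE, limma adjusted p = 0.951), with levels between -0.94 and -0.78 on all 8 arrays.

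The remaining 12 genes were too dim in nerve to be tested. They are the mitotic genes Aurkb, Top2a, Cdk1, Bub1, Bub1b, Tpx2, Nusap1, Cenpf and Ttk, the replication gene Tyms, which makes thymidylate, and the licensing regulators Gmnn, which encodes geminin, and Cdc6. Of the 12, 8 were not well above background in Cy3 on any array, Gmnn, Top2a and Tpx2 were on 1 array each and Nusap1 on 2. Their groups overlapped in 12 of 12, and the mean was higher in SOD1G93A nerve in 9 of 12, by at most 0.26 (Nusap1, a spindle microtubule protein). Top2a, Cdc6, Cenpf and Gmnn are among the 9, each at 0.03. Of all tested genes 45.3% had a positive difference, and no share was taken over equally dim genes. These values lie near background, so the counts are not read as a direction. Aurkb and Cenpf were not well above background in the reference either, so those probes carry no level in either tissue here. Because Cdk1, the kinase that the mitotic cyclins activate, and Top2a, which untangles chromosomes, lie in this group, the statements on mitotic genes concern the 13 that could be tested.

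Against the neonatal organs, nerve was low in nearly all of these transcripts. The tested mitotic genes had a median level of -2.11, from -2.66 (Birc5) to -0.60 (Foxm1), and the replication genes a median of -1.54, from -2.99 (Rrm2) to -0.02 (Pcna), while the median over all tested genes was 0.07. Of the 24, 18 had a mean level under -1, meaning a reference signal more than 2-fold that of nerve, against 9.28% of all tested genes. The reference signal was 7.96-fold that of nerve for Rrm2, 6.30-fold for Birc5, 6.02-fold for Mki67 and 6.09-fold for Ccna2, whose nerve signal stood well above background on all SOD1G93A arrays but on 2 of 4 wild-type ones. The Birc5 value is that of its brightest probe, and its other probes, dim in nerve, had levels of -1.25 and -1.09. The reference was 1 pool and no dye was swapped, so these ratios have no test and may hold a dye bias.

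The levels within the replication genes were uneven. Pcna was at -0.02 and Mcm4 at -0.81, whereas Mcm2, Mcm5, Mcm7, Mcm3 and Mcm6 lay between -1.74 and -1.46. Ccnd1 had a level of 0.27, the only mean above 0 among the 24. The 13 mitotic genes were lower in nerve than in the reference on all 8 arrays, as were 8 of the 9 replication genes. For Cdk1, which was not well above background in nerve on any array, the reference was at least 3.51-fold higher on its brightest probe. The other Cdk1 probes, with levels of -0.05 and -0.04, were not well above background in either dye on any array. For the checkpoint kinase gene Bub1 the reference was at least 1.78-fold higher and for Bub1b at least 1.71-fold. For Tyms the same comparison gave -0.09 in log2, so it sets no bound. Each bound sets the mean reference signal against the higher, on each array, of the gene's own Cy3 signal and the lowest Cy3 signal among probes well above background, after loess and Aquantile normalization.

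**Figure D4:**
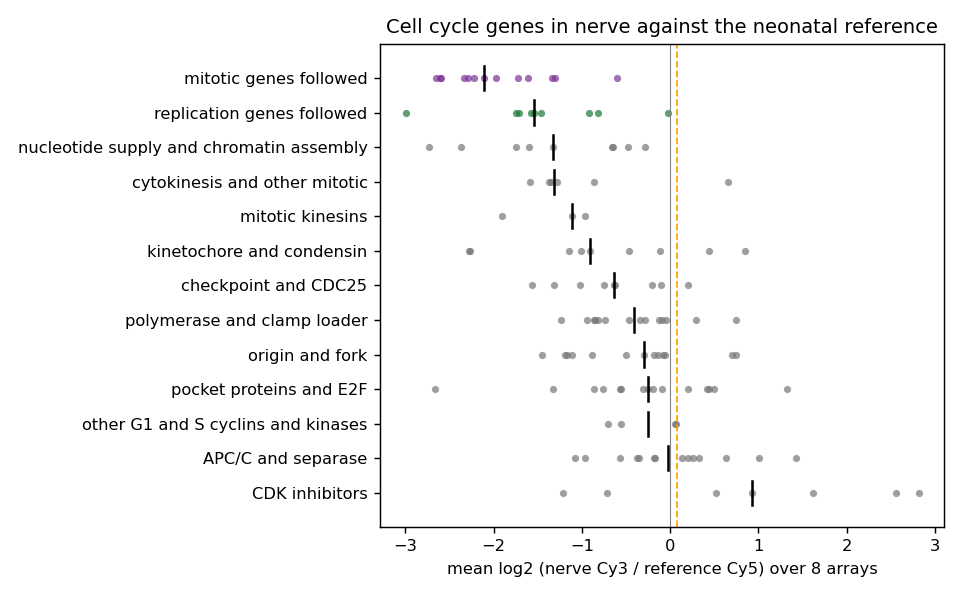
Mean level in nerve relative to the neonatal organ reference over the 8 arrays (log2, horizontal axis), with each tested gene as a point and each list's median as a black line, for the mitotic and replication genes and for 11 other cell cycle lists. The dashed line marks the median of all tested genes, 0.07. The mitotic genes have the lowest median, -2.11, and the CDK inhibitors the highest, 0.93.

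Mcm3 was measured by 2 kept probes that gave opposite signs. The brighter, A_51_P324934, is the one used above, and the other, A_55_P1953087, gave 0.11 ± 0.17 (SE). Its levels were -0.66, -1.28, -1.33 and -0.98 in wild type and -1.23, -1.12, -0.74 and -0.74 in SOD1G93A nerve, and the groups overlapped on either probe. The probes overlap by 43 bases and differ in them at 1 base, G14A, counted from the 5′ end of A_51_P324934. The stretch around that base, at chr1:20793153-20793177 on the minus strand of mm9, is shown with the differing base in capitals.
A_51_P324934: agctttctttgcGattagactagta
A_55_P1953087: agctttctttgcAattagactagta
The probe of negative sign was designed to a cDNA clone that was not matched to a RefSeq transcript, and the direction of Mcm3 between genotypes was not settled by these 2 probes.

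**Figure D5:**
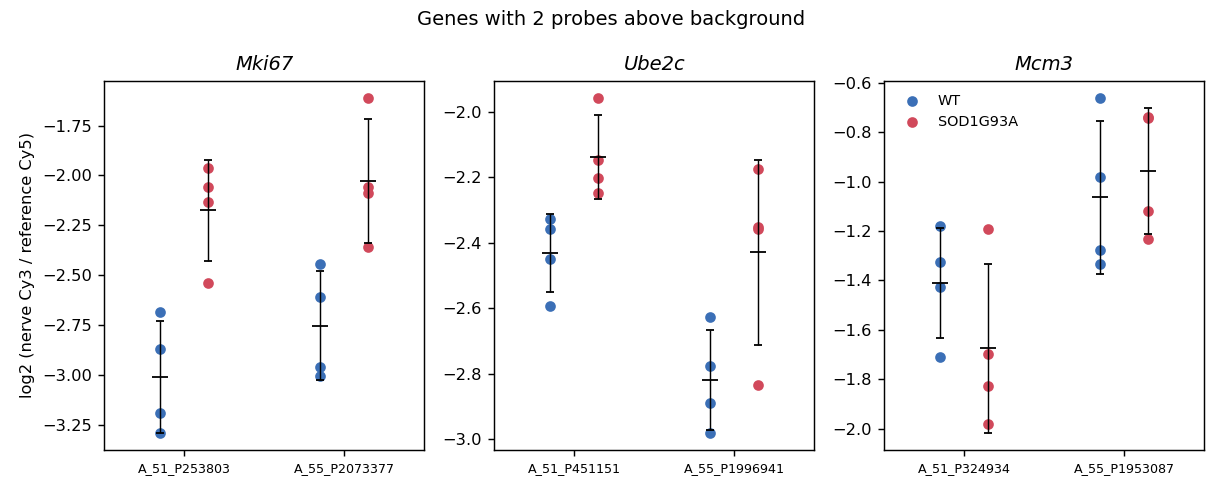
Level on each array (log2 ratio of nerve to reference, vertical axis) from both kept probes of Mki67, Ube2c and Mcm3, with each array as a point and the mean ± SD of the 4 arrays of a genotype as black bars. The 2 Mki67 probes and the 2 Ube2c probes have higher SOD1G93A means, whereas the 2 Mcm3 probes differ in sign.

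Among 151 other cell cycle genes, 103 were tested and none passed the threshold (limma). At an unadjusted p under 0.05, 10 of 103 were higher and 4 lower in SOD1G93A nerve, against 4.84% and 6.57% of all tested genes. In 11 of 103 all SOD1G93A arrays lay above all wild-type arrays and in 1, Tfdp1, an E2F partner named after its values were seen, all lay below, at -0.16 ± 0.10 (SE, limma adjusted p = 0.586), against 3.67% and 4.33% of all tested genes. For Tfdp1, SOD1G93A replicate 1 lay at -0.57 and the other SOD1G93A arrays at -0.19 to -0.15, and without replicate 1 the difference was -0.06. The median difference of the 103 was 0.04, and 62 of 103 were positive, against 45.3% of all tested genes. Of 9 tested genes of the kinetochore and condensin, which attach and compact chromosomes, 3 had separate groups, Ncapg2 at 0.35 ± 0.08 (SE), Incenp at 0.41 ± 0.09 and Spc25 at 0.55 ± 0.15 (limma adjusted p = 0.124, 0.129 and 0.219). Incenp encodes the scaffold of the passenger complex to which survivin and borealin belong. Of 18 genes of cytokinesis and other mitotic steps, 6 were tested and 6 were positive. Among them Ccnf at 0.45 ± 0.10 and Racgap1 at 0.40 ± 0.14 (SE) had separate groups. Ccnf exceeded background clearly on 3 of 4 SOD1G93A and 2 of 4 wild-type arrays, and with Agilent's processed signals it gave 0.94 with an adjusted p of 0.493 (limma). Ncapg2, Spc25 and Racgap1 gave 0.59, 0.83 and 0.70 with those signals. The checkpoint and CDC25 list went the other way, with 2 of 9 tested genes positive and a median of -0.17. In that list 2 of the 9 were lower at an unadjusted p under 0.05 (limma) and 0 were higher.

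Asf1b, a histone chaperone of replicating chromatin, gave 0.40 ± 0.08 (SE, limma adjusted p = 0.106) and exceeded background clearly on 2 of 4 wild-type arrays. The 14 tested polymerase and clamp loader genes had a median of 0.01 and the 13 origin and fork genes one of 0.05, with 0 of either at an unadjusted p under 0.05. In the latter list Gins4, a subunit of the GINS complex that joins the MCM subunits in the active helicase, had separate groups at 0.16 ± 0.08 (SE). Of the E2F family E2f1 gave 0.24 ± 0.08 and E2f6 0.18 ± 0.07 (SE), both with separate groups. Cdkn1a encodes p21, an inhibitor of CDKs that holds cells out of the cycle. It gave 0.41 ± 0.11 (SE, limma adjusted p = 0.206) with separate groups. Unlike the mitotic genes, Cdkn1a was higher in nerve than in the reference, at 2.81, and the 7 tested CDK inhibitors had a median level of 0.93.

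Marker levels of several cell types were uneven over the same arrays, although few single markers passed the threshold. Of 18 macrophage markers 16 were tested and 13 were positive, with a mean deviation of -0.46 to -0.03 on wild-type and -0.45 to 0.61 on SOD1G93A arrays. SOD1G93A replicate 1, the array of lowest weight (0.17), was the one at -0.45, inside the wild-type range. Non-myelinating and repair Schwann cells had 8 of 9 tested markers positive, and the median over the 9 was 0.11. Their mean deviation ran from -0.32 to -0.10 on wild-type and from 0.15 to 0.43 on SOD1G93A arrays. The large differences were those of Gdnf (1.22), Jun (1.11), Atf3 (0.84) and Ngfr (0.70). All other tested markers of the list lay between -0.02 and 0.11. Jun and Gdnf of this list passed the threshold. Jun, which is on the immediate early list too, rose by 1.11 ± 0.15 (SE, limma adjusted p = 0.0390), and the call was lost without any 1 wild-type array and without SOD1G93A replicate 3 or 4 (adjusted p = 0.0608 to 0.154). Agilent's processed signals and the series table lost it too (both limma adjusted p = 0.0759). So did the replicate block (0.140) and median centring (0.302), and 11 of 21 alternatives called Jun. Gdnf had a limma adjusted p of 0.0279, and of 0.0569 to 0.130 without wild-type replicate 1, 2 or 3 or SOD1G93A replicate 2, 3 or 4. With median centring it was 0.0762 and with the replicate block 0.120, and 12 of 20 alternatives called Gdnf. No marker of the other lists passed. Of 12 myelinating markers 11 were positive, and the median over the 12 was 0.10. The negative one, Egr2, gave -0.46 ± 0.15 (SE, limma adjusted p = 0.286), with all SOD1G93A arrays below all wild-type arrays. Of 10 immediate early genes 8 were positive and Jun alone passed, from -0.67 to -0.44 on wild-type and -0.28 to 1.14 on SOD1G93A arrays. Markers of endothelium (10 of 11), pericytes and smooth muscle (8 of 9), adipocytes (9 of 9), mast cells (6 of 6) and skeletal muscle (8 of 8) mostly had negative differences, with 0 called. Of these the endothelial level did not overlap between genotypes, at 0.02 to 0.47 on wild-type and -0.51 to -0.02 on SOD1G93A arrays. The levels overlapped for smooth muscle and pericytes, at -0.32 to 0.99 and -0.59 to -0.26, for adipocytes, at -0.40 to 1.28 and -1.50 to -0.01, and for mast cells, at -0.29 to 0.76 and -0.74 to 0.20. The muscle level was 3.08 and 2.10 on wild-type replicates 1 and 2 against -1.04 to -0.61 on the other 6 arrays. The T and NK cell markers Cd3d, Cd3g, Cd8a and Klrb1c were not among the tested genes. The 3 tested markers of that list were Cd3e at -0.20 ± 0.09, Cd4 at 0.17 ± 0.11 and Nkg7 at 0.05 ± 0.08 (SE). In each of them the groups overlapped. The part of any of these cell types in the mitotic differences was not tested.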

How the data were processed

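Per the labels, Cy3 carried nerve RNA and Cy5 the reference on 8 arrays, 4 per genotype. The deposited scanner files hold linear spot intensity and background intensity for both dyes, written by Agilent Feature Extraction 11.5.1.1 per the file headers. Version 11.0.1.1 of that program stands in the submitters' processing notes, which also list limma without saying for what. In the deposited series table the values are log10 ratios of Cy5 over Cy3, identical on every spot to the ratios in the scanner files, with a median of 0 on each array and 33.3% of values exactly 0. Their sign was turned here. Flags and probe names, the other deposited columns, carry no scale.

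Spot means were corrected by normexp with an offset of 50 and by loess within arrays, with control spots at no weight and outlier spots left out. Probes had to stand well above background in Cy3 on 4 or more of the 8 arrays, which 19839 of 55681 did. The one of highest mean Cy3 signal was used for each gene name, giving 15344 genes. Probes matched a RefSeq transcript by accession for 35 of the 36 genes followed. Genotypes were compared on log2 ratios by limma (version 3.58.1, lmFit with eBayes, R 4.3.3), 2-sided, with Benjamini-Hochberg adjustment over all genes. Tables were handled with data.table, version 1.17.8, and sequences with Python, version 3.11.15. The procedure was tested on simulated data. The number of arrays limits the precision.

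All 36 genes are named, with the 10 other cell cycle genes of smallest p whose groups do not overlap. Any further gene was chosen after its values were seen. The genes, lists, named-gene rule and alternatives were chosen with earlier results of these data known. Alternatives covered background correction, normalization, the Cy3 channel alone, the dim probe filter, array weights, the replicate number as a block, the variance model, several probes per gene, the series table and leaving out arrays.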

Additional observations from a re-analysis of the deposited data

Results flagged for a closer look

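Of 72 groups of 4 arrays checked over the 36 genes, 2 held an array whose gap to its nearest neighbour was large for the group's range, where chance gives about 3.6. For Mcm4, wild-type replicate 1 had a level of -0.40, against -0.84 to -0.77 on the other wild-type arrays, a gap of 0.841 of the range. For Pcna, SOD1G93A replicate 1 had a level of -0.77, against 0.04 to 0.17 on the other SOD1G93A arrays, a gap of 0.853 of the range. The difference of Pcna between genotypes has its sign from that array.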

How the results depend on the processing

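In 20 of 21 alternatives 0 of the tested genes followed were called, and with array weights 1 was, Mki67 at 0.83 (limma adjusted p = 0.0295, and 0.0295 to 1 over its alternatives). All tested mitotic genes stayed above wild type in each of the 21. The mitotic median was 0.51 with Agilent's processed signals and with the series table, which are nearly the same values, and its range with 1 array left out was 0.24 to 0.40. Both of those settings put the mitotic genes at -2.54 and the replication genes at -1.73 against the reference. The count of replication genes above wild type was 4 with scale normalization between arrays, 4 with array weights, 6 on the arrays numbered 2 to 4 and 2 to 5 with 1 array left out. Other cell cycle genes called numbered 5 with array weights (Asf1b, Ccnf, Incenp, Ncapg2 and Pttg1), 2 on the arrays numbered 2 to 4 (Incenp and Pttg1), and 0 to 1 with 1 array left out, Pttg1 without wild-type replicate 1 and Incenp without SOD1G93A replicate 1. Ccne1 reversed to -0.031 with median centring, -0.021 with array weights and -0.016 on the arrays numbered 2 to 4. With scale normalization between arrays Mcm2 reversed to 0.0040 and Mcm5 to 0.0054, with array weights Mcm6 to 0.039 and Pcna to 0.046, and on the arrays numbered 2 to 4 Mcm4 to 0.037, Mcm5 to 0.0078, Mcm6 to 0.087 and Pcna to 0.12. With 1 array left out the range was -0.0070 to 0.049 for Ccne1, -0.067 to 0.041 for Mcm2, -0.058 to 0.026 for Mcm5, -0.16 to 0.021 for Mcm6 and -0.25 to 0.067 for Pcna. The cause of these changes was not tested. Over all genes 25 were called, against 6 with the processed signals, 6 with the series table, 1 with median centring, 16 with no filter on dim probes, 413 with array weights, 234 on the arrays numbered 2 to 4 and 3 to 180 with 1 array left out, the highest without SOD1G93A replicate 1.

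Whether replicate numbers pair the arrays was not settled. Same-numbered arrays correlated at -0.16, 0.04, -0.11 and 0.10 in their deviations from the group means. Arrays of unlike number correlated at -0.21 to 0.23, so these values show no pairing but cannot exclude one. With the replicate number as a block 1 gene was called over all genes and 0 of the genes followed.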

Other observations

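Pttg1, which encodes securin, the inhibitor of separase, had the largest difference among the 103 other cell cycle genes tested, and was singled out after its values were seen. Its levels were -1.85, 0.96, 0.32 and 0.27 on the wild-type arrays and -1.82, -1.73, -1.91 and -1.96 on the SOD1G93A arrays. Wild-type replicate 1 thus lay among the SOD1G93A arrays and the other 3 wild-type arrays far above them, with no array in between. The difference was -1.78 ± 0.50 (SE, limma adjusted p = 0.224), and -2.37 without wild-type replicate 1 (limma adjusted p = 0.00318, one of its 21 alternatives, of which 3 called it). Its sign is opposite to that of the 13 tested mitotic genes.

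Wee1, a kinase that holds CDK1 inactive before mitosis, was the other lower gene of smallest p, at -0.43 ± 0.15 (SE, limma adjusted p = 0.324). Its levels were -0.52, -0.19, -0.62 and -0.83 in wild type and -1.22, -0.73, -0.92 and -0.99 in SOD1G93A nerve, and SOD1G93A replicate 2 lay inside the wild-type range.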
